A study of Mus musculus with 2 samples.

Results

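The genes described here make and modify fatty acids outside the mitochondrion. They are Fasn and 9 genes that act before or after it: Acly, Acss2, Acaca, Acacb, Elovl1, Elovl5, Elovl6, Scd1 and Scd2. They were chosen by name, as every transcript model whose annotated gene carries one of these symbols. All 10 had reads in each of 2 long-read RNA libraries of mouse adrenal gland, among 18168 annotated genes with at least 1 read in either library. The measures are the level of each gene, the share of its reads that were assigned to a whole annotated transcript, and how far the other reads reached along it.

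Both libraries form 1 group of total RNA from adrenal gland tissue. The mice were 25-day-old males of the hybrid strain B6CASTF1/J, and no treatment or genotype was contrasted. Replicate 2 held 1290342 reads, 1210671 of them in annotated genes, and replicate 1 held 793999 reads, 752432 of them in annotated genes. The labels leave it unclear whether the libraries come from separate animals. The library records name 1 animal, the tissue records name different ones and the donor record is shared. The spread between the libraries may thus not be a spread between animals. An RNA input (1 µg) is given for replicate 2 alone. Each difference below therefore compares these libraries and no conditions, and its error covers read counting only.

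In this pathway, citrate exported from the mitochondrion is split into acetyl-CoA, acetyl-CoA is carboxylated to malonyl-CoA, and fatty acid synthase joins these units into palmitate with NADPH as reductant. Elongases of the endoplasmic reticulum then lengthen the chain, and desaturases put double bonds into it. The transcription factor SREBP-1, product of Srebf1, drives many of these genes. Steroid-producing cells of the adrenal cortex store cholesterol as esters of fatty acids in lipid droplets, and adipocytes, hepatocytes and other lipid-handling cells use the same pathway.

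The libraries differed in cell type markers before any of these genes is considered. The 6 hepatocyte markers summed to 43821 CPM in replicate 2, against 5.32 CPM in replicate 1, where 4 of them, including Ttr and Apoa1, had no read. CPM is the number of reads of a gene per 1000000 reads in annotated genes. It is not divided by length, since a long read is counted once whatever the length of its transcript. The 8 skeletal muscle markers summed to 0.826 CPM in replicate 2, where 7 of them had no read, against 2452 CPM in replicate 1. The steroidogenic cortex markers summed to 24752 CPM in replicate 2, against 60920 CPM in replicate 1, with 5 of 6 called lower in replicate 2 by Fisher's exact test, and 5 lower and 1 higher (Mc2r) with either rescaling described below. The labelled tissue was thus present in each library. The chromaffin cell markers summed to 7114 CPM in replicate 2, against 9412 CPM in replicate 1, with 5 of 5 called lower in replicate 2 by Fisher's exact test, and 1 higher and 2 lower with either rescaling. The 8 adipocyte markers were all present in each library and summed to 2618 CPM in replicate 2, against 3739 CPM in replicate 1, with 0 called higher and 3 lower by Fisher's exact test, and 2 higher and 2 lower with either rescaling. Over all genes, Fisher's exact test called 25.3% lower and 11.5% higher. Adipoq was at 189 CPM in replicate 2, against 171 CPM in replicate 1. Of the 4 kidney markers 3 had no read, and the sum was 1.65 CPM in replicate 2, against 0 in replicate 1. The 4 macrophage markers summed to 190 CPM in replicate 2, against 203 CPM in replicate 1. Their 4 genes gave 0 calls by Fisher's exact test, by an unadjusted p under 0.05, or with either rescaling described below. What part these other cells have in the differences below was not tested. Fewer cells of a type and less RNA per cell cannot be told apart in tissue RNA.

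The 10 genes were collectively less abundant in replicate 2, and most of the difference lay in Acly, Fasn and the desaturases. Their summed level was 5047 CPM in replicate 2, against 10874 CPM in replicate 1, a mean of 7960 ± 4121 CPM (SD, n = 2). By Fisher's exact test (two-sided, Benjamini-Hochberg over 11382 genes, threshold 0.05), 5 of the 10 were called lower in replicate 2 (Fasn, Acly, Scd1, Scd2 and Elovl6) and 0 higher. Over all genes tested, 25.3% were called lower and 11.5% higher at the same adjusted threshold. At an unadjusted p under 0.05, 6 of the 10 were lower and 0 higher, but the share over all genes was not computed at that threshold. The median log2 ratio of replicate 2 to replicate 1 was -0.60 for the 10 genes and -0.34 for all genes tested. TMM and DESeq2 size factors both place no change at a log2 ratio of -0.36. Relative to that point, exact binomial tests called 4 genes lower (Fasn, Acly, Scd1 and Scd2) and 2 higher (Elovl5 and Acss2) with either scaling. Over all genes tested, TMM then gives 13.5% called lower with 18.0% called higher. Size factors give 13.3% and 18.3% in the same order.

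**Figure D1:**
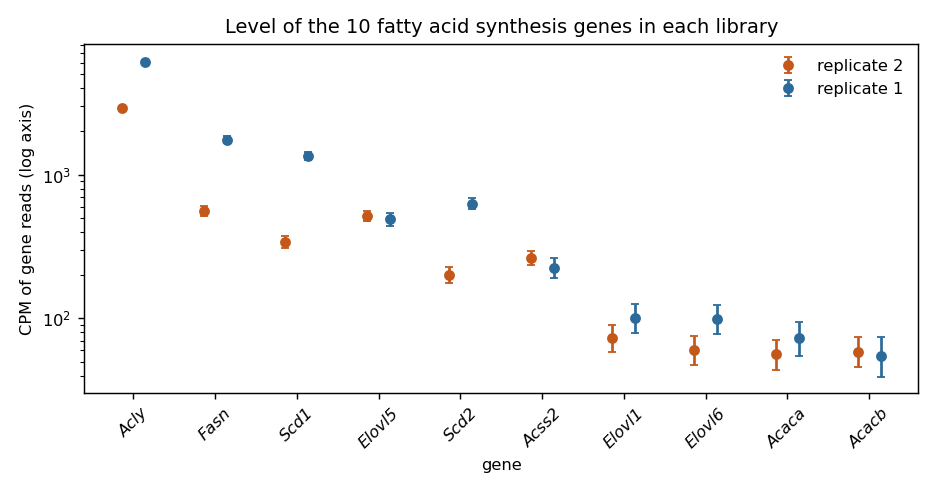
Level of the 10 genes in each library, in CPM of gene reads on a log axis, with exact 95% Poisson intervals as bars. Replicate 2 (left point of each pair) lies below replicate 1 for Acly, Fasn, Scd1, Scd2 and Elovl6 with intervals that do not overlap, and the other 5 genes have overlapping intervals.

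Acly encodes ATP-citrate lyase, which splits cytosolic citrate into acetyl-CoA and oxaloacetate. The gene lies at chr11:100476353-100528000 of mm10 on the minus strand. It was the most abundant of the 10, with 2920 CPM (3535 reads) in replicate 2, against 6100 CPM (4590 reads) in replicate 1, a mean of 4510 ± 2249 CPM (SD, n = 2). These levels gave it rank 23 among the genes of replicate 2 and rank 7 in replicate 1. The Poisson intervals, 2824 to 3018 CPM and 5925 to 6279 CPM in the same order, do not overlap. The log2 ratio was -1.06 ± 0.03 (counting SE; adjusted p = 1.29e-238, Fisher's exact test).

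Acly reads fell mainly on 2 annotated protein-coding forms that differ by a cassette exon. Acly-201 has 28 exons, and Acly-203 has 29, the additional one being exon 14 of 29, at chr11:100503160-100503189. It is 30 bases long, a whole number of codons. The sequence is shown because it is the stretch that separates the main forms, with the alternative exon in capitals and 20 bases of each neighbouring exon in lower case, 5′ to 3′ along the transcript, from GENCODE M21.
Acly exon 14: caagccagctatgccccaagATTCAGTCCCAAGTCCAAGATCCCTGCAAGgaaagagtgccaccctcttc
The form without this exon, Acly-201, held 75.1% of known Acly reads in replicate 2 (2090 of 2783) and 71.9% in replicate 1 (2776 of 3861). The form with it, Acly-203, held 22.4% in replicate 2 (622 reads, 95% Clopper-Pearson interval 20.8% to 23.9%) and 27.0% in replicate 1 (1043 reads, 25.6% to 28.4%). Acly-201 was the leading form in each library, and its share differed by 3.20 points (Fisher's exact test, adjusted p = 0.107). The intervals of Acly-203, whose share was not tested on its own, do not overlap. A further form, Acly-207 with 27 exons, held 2.48% in replicate 2 (69 reads, 1.93% to 3.13%) and 0.958% in replicate 1 (37 reads, 0.676% to 1.32%), also with intervals that do not overlap. Acly-205, a short processed transcript, had 2 reads in each library.

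Acss2 encodes the cytosolic acetyl-CoA synthetase, which makes acetyl-CoA from acetate. It lies at chr2:155517948-155585724 on the plus strand. Its level was 264 CPM (320 reads) in replicate 2, against 225 CPM (169 reads) in replicate 1, a mean of 244 ± 28.1 CPM (SD, n = 2). The libraries did not differ beyond counting error on this scale (log2 ratio 0.23 ± 0.14, Fisher's exact test, adjusted p = 0.187). With TMM the log2 ratio was 0.59 and the gene was called higher in replicate 2 (adjusted p = 8.63e-05, exact binomial test).

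Like Acly, Acss2 was read mainly as a chain without and a chain with a small in-frame exon. Acss2-203 carries exon 8 of 19, at chr2:155551190-155551228, 39 bases, which Acss2-201 with 18 exons lacks. The forms also differ outside this exon, since Acss2-203 is the shorter transcript, with 2145 bases against 2931 for Acss2-201. The alternative exon is printed as for Acly, in capitals.
Acss2 exon 8: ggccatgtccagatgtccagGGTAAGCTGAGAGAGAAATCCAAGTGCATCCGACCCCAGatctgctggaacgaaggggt
Acss2-201 held 69.5% of known reads in replicate 2 (185 of 266) and 66.7% in replicate 1 (98 of 147), and Acss2-203 the other 81 and 49 reads. The leading share of Acss2 differed by 2.88 points (Fisher's exact test, adjusted p = 1). The binomial interval for Acss2-203, 25.0% to 36.4% in replicate 2 and 25.8% to 41.6% in replicate 1, bounds the use of this exon (95% Clopper-Pearson).

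Acaca and Acacb encode the acetyl-CoA carboxylases. The Acaca product is cytosolic and supplies malonyl-CoA for synthesis. The Acacb product sits at the mitochondrial surface, where malonyl-CoA restrains fatty acid entry. Acaca (chr11:84129672-84401651, plus strand) had 56.2 CPM (68 reads) in replicate 2, against 73.1 CPM (55 reads) in replicate 1. Acacb (chr5:114146535-114250761, plus strand) had 58.6 CPM (71 reads) in replicate 2, against 54.5 CPM (41 reads) in replicate 1. The intervals overlap for each gene. The log2 ratio was -0.38 ± 0.26 for Acaca (Fisher's exact test, adjusted p = 0.287) and 0.10 ± 0.28 for Acacb (Fisher's exact test, adjusted p = 0.873). Each ratio turned with the classes counted. Acaca was at 0.37 without genomic reads and at -1.46 without ISM reads, where it was called lower (Fisher's exact test, adjusted p = 0.00178), and Acacb was at -0.83 without ISM reads. For Acaca, 21 reads of the last exon were classed ISM in replicate 2, and 25 were classed genomic in replicate 1. Leaving out 1 class thus dropped these reads from 1 library only. Of the 10 genes these had the lowest mean levels, 64.6 ± 12.0 and 56.6 ± 2.94 CPM (SD, n = 2), a difference smaller than the spread of Acaca.

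Fasn encodes fatty acid synthase, a large multifunctional enzyme that carries every step of palmitate synthesis from malonyl-CoA on 1 polypeptide. The gene lies at chr11:120805846-120824547 on the minus strand, and its coding transcript Fasn-201 has 43 exons and 10050 bases, the longest among the 10 genes. Fasn had 559 CPM (677 reads) in replicate 2, against 1752 CPM (1318 reads) in replicate 1, a mean of 1155 ± 843 CPM (SD, n = 2). It ranked 231 in replicate 2 and 36 in replicate 1. The intervals, 518 to 603 and 1658 to 1849 CPM in the same order, are far apart. The log2 ratio was -1.65 ± 0.07 (Fisher's exact test, adjusted p = 3.25e-136), or -1.29 with TMM (adjusted p = 9.61e-83, exact binomial test). Counted over reads of known transcripts alone, it was -3.16.

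The 5 genes most like Fasn, those with at least 31 exons and the nearest mean levels, moved in different ways between the libraries. C3, a complement protein made mainly in liver, had 1318 CPM in replicate 2, against 128 CPM in replicate 1. Cps1, a urea cycle enzyme of hepatocytes, had 1005 CPM in replicate 2 and no read in replicate 1, where 3 reads would be 3.99 CPM. The collagens Col3a1 (668 CPM in replicate 2, 720 CPM in replicate 1) and Col4a1 (270 CPM in replicate 2, 607 CPM in replicate 1) are matrix genes. Eprs, a tRNA synthetase gene, had 325 CPM in replicate 2, against 372 CPM in replicate 1.

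The elongases came next in the pathway. Elovl5, which lengthens polyunsaturated chains, lies at chr9:77917364-77984519 on the plus strand. It had 514 CPM (622 reads) in replicate 2, against 489 CPM (368 reads) in replicate 1, a mean of 501 ± 17.5 CPM (SD, n = 2). Those levels are within counting error of each other (log2 ratio 0.07 ± 0.09, Fisher's exact test, adjusted p = 0.624). Set against the TMM point the ratio was 0.43 and called (adjusted p = 4.13e-05, exact binomial test).

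Elovl6, which lengthens palmitate to stearate, lies at chr3:129532355-129638495 on the plus strand. It had 60.3 CPM (73 reads) in replicate 2, against 99.7 CPM (75 reads) in replicate 1, a mean of 80.0 ± 27.8 CPM (SD, n = 2). The log2 ratio was -0.72 ± 0.24 and was called (Fisher's exact test, adjusted p = 0.00841). The call ended with TMM (-0.37, adjusted p = 0.277, exact binomial test), with known transcripts alone (-0.56) and without genomic reads (-0.48). Elovl1, which makes very long saturated and monounsaturated chains, lies at chr4:118428093-118432953 on the plus strand. It had 72.7 CPM (88 reads) in replicate 2, against 101 CPM (76 reads) in replicate 1, a mean of 86.8 ± 20.0 CPM (SD, n = 2). Its log2 ratio of -0.48 ± 0.23 missed the threshold (Fisher's exact test, adjusted p = 0.0893), and passed it without ISM reads (-0.57) and with replicate 2 thinned to the depth of replicate 1 (-0.72).

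Scd1 and Scd2 encode stearoyl-CoA desaturases, which put the first double bond into saturated chains. They are neighbours on chromosome 19 on opposite strands, Scd2 at chr19:44293674-44306864 (plus) and Scd1 at chr19:44394455-44407879 (minus). Scd1 had 341 CPM (413 reads) in replicate 2, against 1352 CPM (1017 reads) in replicate 1, a mean of 846 ± 715 CPM (SD, n = 2). It was 3.96-fold lower in replicate 2, the largest ratio among the 10 genes (log2 ratio -1.99 ± 0.08, Fisher's exact test, adjusted p = 3.93e-137). Scd2 had 201 CPM (243 reads) in replicate 2, against 629 CPM (473 reads) in replicate 1, a mean of 415 ± 303 CPM (SD, n = 2). Its log2 ratio was -1.65 ± 0.11 (Fisher's exact test, adjusted p = 4.83e-49), as large as that of Fasn. The calls of Scd1 and Scd2 held with TMM, at -1.63 and -1.29. Over known transcripts alone the ratios were -3.44 for Scd1 and -2.54 for Scd2. The genes are similar in sequence, so reads short of their distinguishing parts could in principle be assigned to either. Whether any read was assigned to the wrong gene was not tested.

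In the order of mean level, Acly stood first, followed by Fasn, Scd1, Elovl5, Scd2 and Acss2, and then Elovl1, Elovl6, Acaca and Acacb below 100 CPM. Of the neighbours in that order, Acly and Fasn, and Acss2 and Elovl1, differed by more than the SD of either gene. Every other pair of neighbours lay within the SD of at least 1 of the pair. In replicate 2, Elovl5 was above Scd1, Scd2 and Acss2, while in replicate 1 Scd1 and Scd2 were above Elovl5.

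Gene level and transcript length were related in the library comparison over all genes. Across 10844 genes with a protein-coding transcript, the log2 ratio and the length of that transcript had a rank correlation of -0.28 (a description across genes, which share libraries and depth). The median log2 ratio was 0.34 for transcripts up to 1 kb, -0.08 from 1 to 2 kb, -0.38 from 2 to 3 kb, -0.62 from 3 to 5 kb, -0.56 from 5 to 7.5 kb and -0.39 above that. Fasn was far below its length class, at -1.65, while Acaca and Acacb in the same class were at -0.38 and 0.10. Scd1 and Acly, both between 3 and 5 kb, were at -1.99 and -1.06, and Scd1 lay below the lower quartile of its class (-1.15). Scd2 at -1.65 was below the lower quartile of the next class (-1.13), and Elovl6 at -0.72 was inside its quartiles. The mean length of the model holding a gene read was 2206 bases in replicate 2 and 2614 bases in replicate 1. What part length has in the level differences was not tested.

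**Figure D2:**
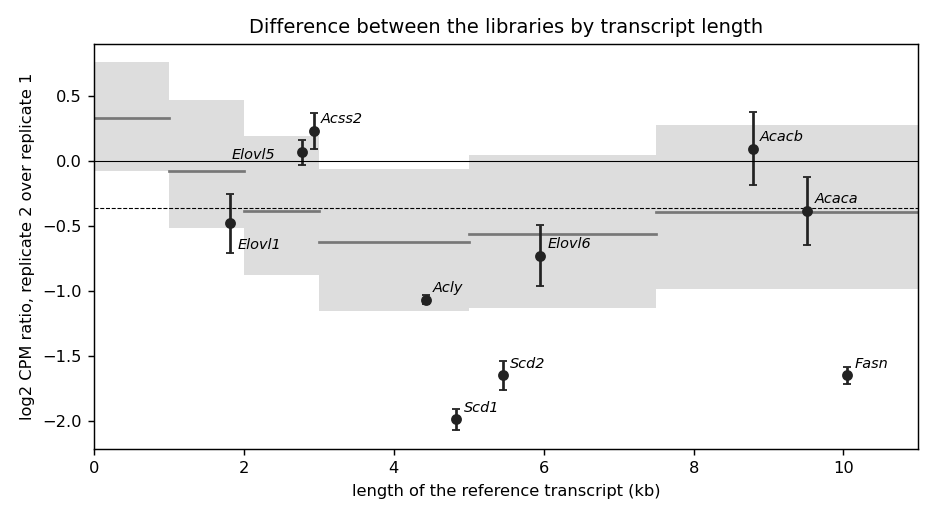
Log2 ratio of CPM, replicate 2 over replicate 1, against the length of the reference transcript in kb for the 10 genes, with bars of 1 counting SE. Grey boxes are the quartiles and grey lines the medians of all genes in that length class, and the dashed line is the point that TMM takes as no change; Fasn, Scd1 and Scd2 lie below the boxes.

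The deposited tables put every read in a class. A known read follows a whole annotated transcript, and an ISM read (incomplete splice match) follows part of an annotated intron chain. NIC and NNC reads hold a combination of known splice sites or a splice site outside the annotation, and genomic reads do not follow the annotated splicing. The known share used here is the number of known reads among known and ISM reads. The 10 genes range from 5 to 56 exons, and each is set beside genes of like exon number.

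Exon number and the known share were related over all genes with at least 20 such reads in each library (4699 genes). The median share was 96.5% in replicate 2 and 97.5% in replicate 1 for genes of 2 to 5 exons, 92.7% and 95.5% for 6 to 10, 86.4% and 92.5% for 11 to 20, 66.7% and 83.3% for 21 to 30, and 16.6% and 30.6% for 31 or more, in the same order. The rank correlation of share and exon number across these genes was -0.49 in replicate 2 and -0.42 in replicate 1. For the 10 genes it was -0.59 in replicate 2 and -0.65 in replicate 1 (n = 10 genes). Their median share was 76.6% in replicate 2 and 80.1% in replicate 1, against 90.9% in replicate 2 and 94.5% in replicate 1 over all 4699 genes.

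By Fisher's exact test over these genes, 3 of the 10 had a lower known share in replicate 2 (Fasn, Acly and Scd1) and 0 a higher one. The background at the same adjusted threshold was 12.2% lower and 1.40% higher, and the share was numerically lower in replicate 2 for 3138 of the 4699 genes. At an unadjusted p under 0.05, 4 of the 10 were lower and 0 higher, with no background computed at that threshold. All 10 genes had enough reads for this test, though Acaca had 23 such reads in replicate 1.

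Fasn was read almost wholly in part. Its known share was 5.61% in replicate 2 (34 of 606 reads, 95% interval 3.92% to 7.75%) and 15.6% in replicate 1 (195 of 1252, 13.6% to 17.7%). The difference of -9.96 points passed the test (Fisher's exact test, adjusted p = 7.64e-09). Both values lay within the quartiles of genes with 31 or more exons, 2.58% to 48.3% in replicate 2 and 7.00% to 71.2% in replicate 1. Among the genes set beside it, the known share was 28.1% in replicate 2 and 39.1% in replicate 1 for C3, and 92.7% and 94.5% in the same order for Eprs. For Col3a1 it was 89.2% in replicate 2 and 84.3% in replicate 1, with 51 exons in 5564 bases. For Col4a1, with 52 exons in 6615 bases, it was 48.4% in replicate 2 and 35.3% in replicate 1, called higher in replicate 2 (Fisher's exact test, adjusted p = 0.00612), the opposite direction to Fasn. Each of these transcripts is shorter than Fasn-201.

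The known Fasn reads themselves were of different kinds in the libraries. The full coding transcript Fasn-201 took 13 of 34 known reads (38.2%) in replicate 2 and 190 of 195 (97.4%) in replicate 1, a difference of -59.2 points (Fisher's exact test, adjusted p = 3.99e-14). The others were almost all Fasn-203, a 2-exon transcript of 976 bases annotated as retaining an intron, with 21 reads in replicate 2 and 4 in replicate 1. With known transcripts that are not protein-coding counted as ISM, the known share of Fasn was 2.15% in replicate 2 and 15.2% in replicate 1 (Fisher's exact test, adjusted p = 9.97e-19). The quartiles given above for genes of like exon number were not recomputed that way. Of the 5 genes that could be tested for the share of their leading known transcript, Fasn and Elovl1 were called, against 2.83% of 2683 genes in either direction.

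**Figure D3:**
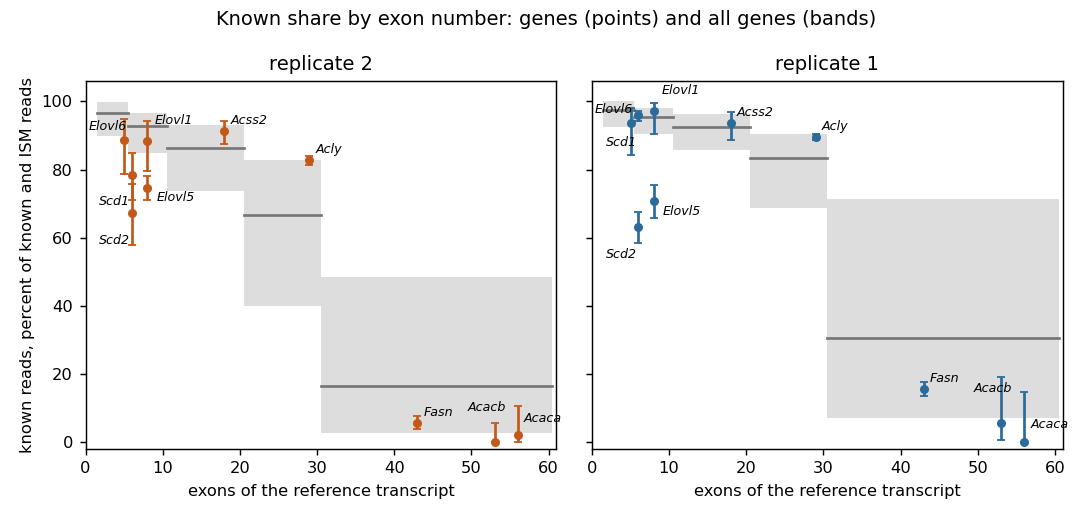
Known reads as a percentage of known and ISM reads against the exon number of the reference transcript, for the 10 genes in replicate 2 (left) and replicate 1 (right), with 95% Clopper-Pearson bars. Grey boxes and lines are the quartiles and medians of all genes in each class of exon number; Fasn, Acaca and Acacb sit at or below 15.6% in both panels, and Acly with 29 exons is above its class median in both.

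The carboxylases were read in full hardly at all. Acaca had 1 known read of 51 in replicate 2, a transcript of a single exon (Acaca-209), and 0 of 23 in replicate 1. Its coding reference Acaca-202, with 56 exons and 9513 bases, had no full-length read in either library. Acacb had 0 known reads of 64 in replicate 2 and 2 of 35 in replicate 1, both of Acacb-202 with 53 exons and 8788 bases. At these depths no difference between the libraries was detectable (adjusted p = 1 for Acaca and 0.396 for Acacb, Fisher's exact test).

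Acly was read in full more often than the median gene with 21 to 30 exons. Its known share was 82.8% in replicate 2 (2783 of 3363 reads, interval 81.4% to 84.0%) and 89.5% in replicate 1 (3861 of 4313, 88.6% to 90.4%), a difference of -6.77 points (Fisher's exact test, adjusted p = 1.41e-15). Both were above the class medians of 66.7% in replicate 2 and 83.3% in replicate 1. Acss2, with 18 exons, had 91.4% in replicate 2 and 93.6% in replicate 1, a difference of -2.22 points (Fisher's exact test, adjusted p = 0.854).

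Elovl5 stood low for a gene of 8 exons. Its known share was 74.7% in replicate 2 and 70.8% in replicate 1, below the lower quartile of its class in each (84.8% and 90.3%), and the difference of 3.96 points did not pass (Fisher's exact test, adjusted p = 0.535). All its known reads were Elovl5-201, with 452 in replicate 2 and 254 in replicate 1. Elovl1 had 88.4% in replicate 2 and 97.3% in replicate 1 (Fisher's exact test, adjusted p = 0.184), and Elovl6 88.6% in replicate 2 and 93.5% in replicate 1 (Fisher's exact test, adjusted p = 0.767).

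Elovl1 and Elovl6 were each read in more than 1 annotated form, and the share of the leading form was called for Elovl1. Elovl1-201 took 65 of 76 known reads (85.5%) in replicate 2 and 71 of 71 in replicate 1 (Fisher's exact test, adjusted p = 0.0285). The other 11 reads of replicate 2 were 8 of Elovl1-202 and 3 of Elovl1-203. A minimum of 50 known reads in each library left Elovl1 as the single gene called. Elovl6-201, with 5 exons and 5951 bases, had 42 reads in replicate 2 and 29 in replicate 1, and the shorter Elovl6-205, with 4 exons and 2610 bases, had 20 in replicate 2 and 29 in replicate 1. The Elovl6-201 share, 67.7% in replicate 2 and 29 of 58 reads in replicate 1, did not differ beyond counting error (Fisher's exact test, adjusted p = 0.602).

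Scd1 had a smaller share of whole-length reads in replicate 2, and the gap was wider once reads of a single exon were included. Among known and ISM reads, 78.5% were known in replicate 2 (117 of 149) and 96.0% in replicate 1 (809 of 843), a difference of -17.4 points (Fisher's exact test, adjusted p = 1.09e-09). A further 261 Scd1 reads in replicate 2 and 169 in replicate 1 were genomic models of 1 exon inside the last exon, which is 3664 bases long. They made up 63.2% of all Scd1 reads in replicate 2 (interval 58.3% to 67.9%) and 16.6% in replicate 1 (14.4% to 19.1%). With these reads counted as incomplete, the known share was 28.5% in replicate 2 and 79.9% in replicate 1. All known reads were Scd1-201, with 6 exons.

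Scd2, which also ends in a long last exon (3864 bases), showed the same kind of reads under different class names. Its single-exon model inside that exon was called genomic in replicate 2 (122 reads, 50.2% of the gene, interval 43.7% to 56.7%) and ISM in replicate 1 (136 reads, 28.8%, 24.7% to 33.1%). The models start within a few bases of each other, at 44303231 in replicate 2 and 44303236 in replicate 1. As deposited, the classes gave a known share of 67.2% in replicate 2 and 63.2% in replicate 1, a difference of 4.08 points (Fisher's exact test, adjusted p = 0.841). Treated alike, the sign turned: the difference was -30.4 points with all single-exon reads counted as ISM (32.8% in replicate 2 and 63.2% in replicate 1; Fisher's exact test, adjusted p = 2.96e-12) and -22.8 points with all of them left out (67.2% in replicate 2 and 90.0% in replicate 1; Fisher's exact test, adjusted p = 4.23e-06).

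The naming also touched Acaca and Elovl6. For Acaca, 21 reads of the last exon were ISM in replicate 2, and 25 were genomic in replicate 1. Single-exon reads of all kinds made up 52.9% of Acaca reads in replicate 2 (36 of 68) and 52.7% in replicate 1 (29 of 55). Some of them, 12 in replicate 2 and 4 in replicate 1, lay elsewhere in the gene, outside the last exon. For Elovl6, 8 reads of the last exon were ISM in replicate 2 and 12 were genomic in replicate 1, and its known share difference turned to 8.95 points (87.3% in replicate 2, 78.4% in replicate 1) with all of them counted as ISM. Single-exon reads were a small part of Acly, at 1.07% in replicate 2 and 0.893% in replicate 1, and of Fasn, at 7.68% in replicate 2 and 1.82% in replicate 1.

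**Figure D4:**
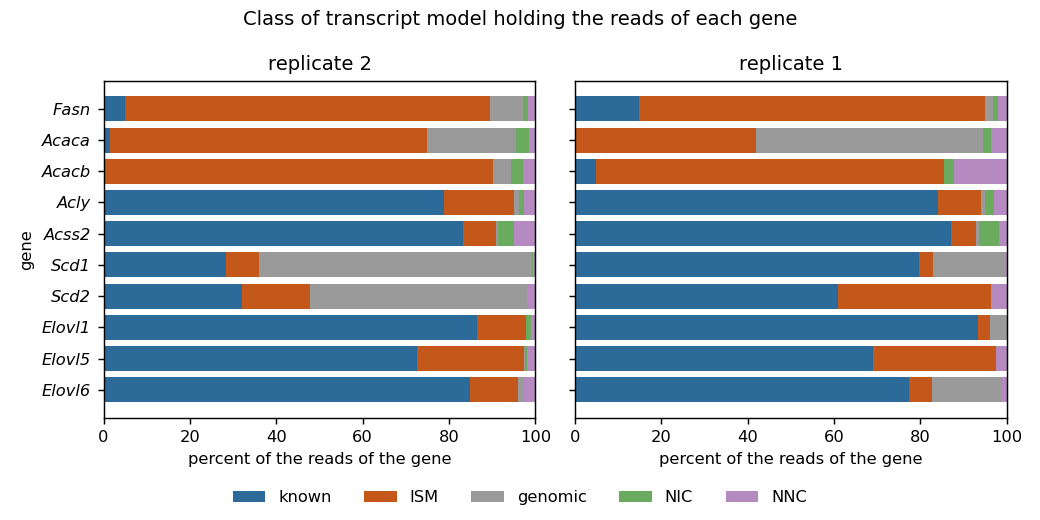
Share of the reads of each gene in each class of the deposited tables, in percent, for replicate 2 (left) and replicate 1 (right). ISM fills 84.5% of Fasn reads in replicate 2 and 80.2% in replicate 1, and the genomic part of Scd1 is 63.2% in replicate 2 and 16.6% in replicate 1; the genomic part of Scd2 in replicate 2 corresponds to part of its ISM bar in replicate 1.

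Because class names depend on the calling, the reach of reads was also measured without them. The measure still rests on the ends of the models, and splicing of the intron itself was not checked. Reach was the share of reads over the last intron of the reference transcript whose spliced models also extended over a given intron. For Fasn, 14 of 623 such reads (2.25%, interval 1.23% to 3.74%) crossed the first intron in replicate 2, and 216 of 1291 (16.7%, 14.7% to 18.9%) in replicate 1. Over intron 22 of 42 the reach was 14.6% in replicate 2 and 35.5% in replicate 1. At least 50% of the reads covered the last 9 introns in replicate 2 and the last 18 in replicate 1. The Fasn reads thus stopped nearer the 3′ end in replicate 2, and the intervals of the libraries do not overlap at the first or the middle intron.

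For Acly, 80.6% of reads over the last intron also crossed the first in replicate 2 and 88.2% in replicate 1. The reach was 79.9% in replicate 2 and 96.3% in replicate 1 for Scd1, and 66.9% in replicate 2 (57.8% to 75.2%) and 89.6% in replicate 1 (85.9% to 92.7%) for Scd2. Elovl1 had 84.1% in replicate 2 and 100% in replicate 1. For these 4 genes the interval of replicate 2 lay wholly below that of replicate 1. Acss2 (93.0% in replicate 2, 94.0% in replicate 1), Elovl5 (78.2% in replicate 2, 73.9% in replicate 1) and Elovl6 (96.9% in replicate 2, 93.7% in replicate 1) had overlapping intervals. Among the carboxylases, 1 of 29 reads reached the first intron of Acaca in replicate 2 and 1 of 24 in replicate 1, and 0 of 66 that of Acacb in replicate 2 and 5 of 38 (13.2%, 4.41% to 28.1%) in replicate 1. A count of 0 of 66 leaves room for a share of up to 5.44% (upper bound of the interval).

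**Figure D5:**
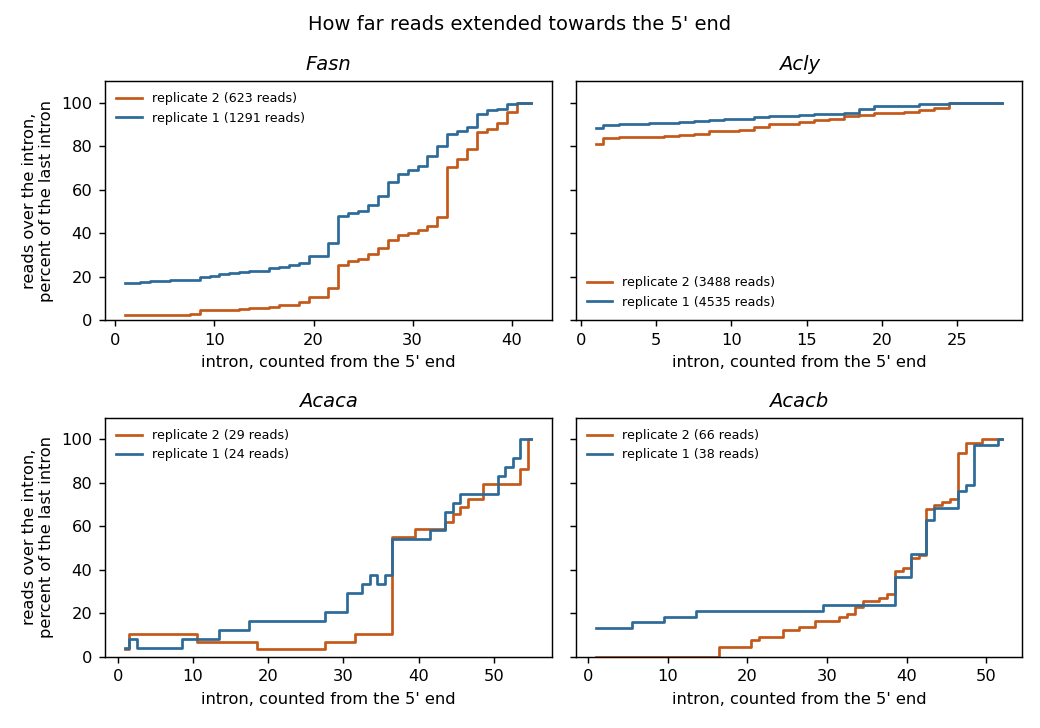
Reads over each intron as a percentage of reads over the last intron, against the number of the intron counted from the 5′ end, for Fasn, Acly, Acaca and Acacb in replicate 2 and replicate 1. The Fasn line steps up at exon 34 (between introns 33 and 34) in replicate 2 and at exon 23 in both libraries, and stands at 2.41% in replicate 2 and 16.9% in replicate 1 over the first intron, whereas Acly stays above 80% throughout.

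The incomplete Fasn reads started at preferred exons. The net number of reads that began within an exon was taken as the reads over the intron after it less those over the intron before it. Exon 34 had 143 such starts in replicate 2 (23.5% of 609) and 73 in replicate 1 (6.80% of 1073). Exon 23, of 387 bases, had 65 in replicate 2 (10.7%) and 161 in replicate 1 (15.0%). The 3 ISM chains with most reads follow from these positions. The chain of 21 exons had 64 reads in replicate 2 and 156 in replicate 1, the chain of 10 exons had 138 in replicate 2 and 72 in replicate 1, and the chain of 7 exons had 48 in replicate 2 and 71 in replicate 1. Thus the chain beginning in exon 34 led in replicate 2 and the chain beginning in exon 23 led in replicate 1.

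Exon 34, singled out after its values were seen, is at chr11:120810641-120810792, 152 bases long. Its sequence, 5′ to 3′ along the transcript from GENCODE M21, is shown because more Fasn reads of replicate 2 began there than in any other internal exon.
Fasn exon 34: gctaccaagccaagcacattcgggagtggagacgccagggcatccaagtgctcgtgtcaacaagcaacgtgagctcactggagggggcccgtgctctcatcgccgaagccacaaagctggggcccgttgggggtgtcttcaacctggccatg
Its GC content is 61.8%, which ranks 7 among the 43 exons of Fasn-201, and its longest run of A is 3 bases. Exon length went with the number of starts only in part: across the 41 internal exons of Fasn the correlation of exon length and starts was r = 0.20 and rho = 0.25 in replicate 2, and r = 0.47 and rho = 0.28 in replicate 1. For the 27 internal exons of Acly it was r = 0.62 and rho = 0.72 in replicate 2, and r = 0.36 and rho = 0.54 in replicate 1 (descriptions across exons of 1 gene).

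In Acly the exons with most starts were exons 2 and 25 in replicate 2, and exons 19 and 20 in replicate 1. Exon 2 had 102 in replicate 2 and 61 in replicate 1, and exon 25 had 84 in replicate 2 and 22 in replicate 1. Exon 19 had 12 in replicate 2 and 69 in replicate 1, and exon 20 had 26 in replicate 2 and 67 in replicate 1. The chain of 5 exons beginning in exon 25 was the leading ISM chain of Acly (84 reads in replicate 2, 22 in replicate 1), followed by a chain of 10 exons (26 reads in replicate 2, 68 in replicate 1) and one of 12 exons (56 in replicate 2, 27 in replicate 1). Of the carboxylases, Acaca was led by a chain of 20 exons (13 reads in replicate 2, 4 in replicate 1) and Acacb by one of 11 exons (14 in replicate 2, 5 in replicate 1). In Elovl5 the leading ISM chain held 4 exons (51 reads in replicate 2, 31 in replicate 1), followed by one of 5 exons (21 in replicate 2, 25 in replicate 1). In Scd1 a chain of 2 exons led (16 reads in replicate 2, 6 in replicate 1), and in Scd2 a chain of 5 exons (21 in replicate 2, 8 in replicate 1).

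Some of the truncated chains recurred, by a rule that rests on read number. Of 70 spliced ISM chains of Fasn, 28 had at least 2 reads in each library, and these held 563 of 572 ISM reads in replicate 2 and 979 of 1057 in replicate 1. Of 61 such Acly chains, 25 recurred, with 549 of 580 reads in replicate 2 and 420 of 452 in replicate 1. Chains with splicing outside the annotation recurred less often, but they also held far fewer reads. Fasn had 8 NIC and 11 NNC reads in replicate 2, and 16 and 26 in replicate 1. Acly had 42 NIC and 92 NNC reads in replicate 2, and 103 and 133 in replicate 1. With so few reads per chain, recurrence cannot be compared between the classes. Acly had 3 recurrent NIC chains out of 70 and 3 recurrent NNC chains out of 127. The most abundant NIC chain, with 28 exons and the intron chr11:100522103-100523439, had 5 reads in replicate 2 and 19 in replicate 1, and the others had 2 to 7 reads in replicate 2 and 3 to 9 in replicate 1. Acss2 had 2 recurrent NIC chains, both made of annotated introns, with 3 and 2 reads in replicate 2 and 3 reads each in replicate 1. None of the 17 NIC and 33 NNC chains of Fasn, and none in the other 7 genes, reached 2 reads in each library.

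Counted as single introns, 225 introns outside the annotation were read in the 10 genes, and 26 had at least 2 reads in each library: 21 in Acly, 3 in Fasn and 1 each in Acacb and Acss2. Most of those in Acly and Fasn had their unannotated end within a few bases of an annotated exon boundary. Whether such small offsets are separate splice sites was not tested. The Acly intron above was the most frequent, with 9 reads in replicate 2 and 30 in replicate 1. It adjoins exon 2, which spans 100523440 to 100523621. Its other end matched no annotated splice site and lies just inside exon 3, which spans 100521982 to 100522104. Each of the 3 recurrent NIC chains of Acly held an intron with an end outside the annotation. The deposited class thus did not keep to known splice sites there. The leading intron of this kind in Fasn, chr11:120808327-120808499, had 2 reads in replicate 2 and 17 in replicate 1. It stops just short of exon 41, whose annotated boundary is at 120808502. The one of Acss2, chr2:155555996-155556332, had 6 reads in replicate 2 and 2 in replicate 1. These introns were named for their read numbers after those were seen.

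The wider pathway was described through 41 other genes in 5 lists. They summed to 9377 CPM in replicate 2, against 12400 CPM in replicate 1. Of the 36 with enough reads, 7 were called higher and 11 lower by Fisher's exact test, or 13 higher and 7 lower with TMM. These counts, and those of each list below, stand beside 11.5% higher and 25.3% lower over all genes by Fisher's exact test, and 18.0% higher and 13.5% lower with TMM. Scd3, Scd4 and Hsd17b8 had no read in either library, where 3 reads, the limit for a count of 0, are 2.48 CPM in replicate 2 but 3.99 CPM in replicate 1.

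Citrate and NADPH supply gave 1 of 5 genes higher and 3 lower, or 2 higher and 2 lower with TMM. Me1, the cytosolic malic enzyme that yields NADPH, had 717 CPM in replicate 2, against 1579 CPM in replicate 1 (log2 ratio -1.14 ± 0.06, Fisher's exact test, adjusted p = 3.27e-69). Pgd, an NADPH-producing enzyme of the pentose phosphate pathway, went the other way, with 289 CPM in replicate 2, against 43.9 CPM in replicate 1 (log2 ratio 2.70 ± 0.26, Fisher's exact test, adjusted p = 2.73e-38). G6pdx, its partner in that pathway, named after its values were seen, had 24.0 CPM in replicate 2, against 94.4 CPM in replicate 1 (log2 ratio -1.96 ± 0.32, Fisher's exact test, adjusted p = 8.39e-10). The citrate carrier Slc25a1 had 420 CPM in replicate 2, against 505 CPM in replicate 1, lower by Fisher's exact test (log2 ratio -0.27, adjusted p = 0.0224) but with the sign turned, at 0.09, with TMM. Idh1, a cytosolic isocitrate dehydrogenase, had 712 CPM in replicate 2, against 722 CPM in replicate 1 (Fisher's exact test, adjusted p = 0.894), and was called higher with TMM (log2 ratio 0.34, adjusted p = 1.09e-04, exact binomial test).

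Carbon supply and malonyl-CoA control gave 1 of 4 higher and 1 lower, or 2 higher and 1 lower with TMM. Thrsp, a lipogenic nuclear protein that responds to thyroid hormone, had 2041 CPM in replicate 2, against 1599 CPM in replicate 1 (log2 ratio 0.35 ± 0.05, Fisher's exact test, adjusted p = 2.77e-11). Acss1, the mitochondrial counterpart of Acss2, had 43.8 CPM in replicate 2, against 149 CPM in replicate 1 (log2 ratio -1.76 ± 0.24, Fisher's exact test, adjusted p = 4.57e-13). Malonyl-CoA decarboxylase, Mlycd, had 293 CPM in replicate 2, against 249 CPM in replicate 1, and Mid1ip1, which promotes acetyl-CoA carboxylase polymers, had 150 CPM in replicate 2, against 166 CPM in replicate 1. Neither passed by Fisher's exact test, and Mlycd was called higher with TMM (log2 ratio 0.60, adjusted p = 2.78e-05, exact binomial test).

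Elongation and desaturation partners gave 2 of 10 tested genes higher and 3 lower, or 3 of each with TMM. The desaturases of polyunsaturated chains were among the lower ones: Fads2 had 1091 CPM in replicate 2, against 3315 CPM in replicate 1 (log2 ratio -1.60 ± 0.05, Fisher's exact test, adjusted p = 1.19e-247). Fads1 had 176 CPM in replicate 2, against 771 CPM in replicate 1 (log2 ratio -2.13 ± 0.12, Fisher's exact test, adjusted p = 5.56e-86). Hacd3, a dehydratase of the elongation cycle, had 270 CPM in replicate 2, against 435 CPM in replicate 1 (log2 ratio -0.69 ± 0.11, Fisher's exact test, adjusted p = 1.50e-08), and Tecr, its last reductase, had 450 CPM in replicate 2, against 443 CPM in replicate 1. Tecr was called with TMM alone (log2 ratio 0.38, adjusted p = 7.37e-04, exact binomial test). The higher ones by Fisher's exact test, named after their values were seen, were elongases. Elovl3 had 230 CPM in replicate 2, against 62.5 CPM in replicate 1 (log2 ratio 1.87 ± 0.23, Fisher's exact test, adjusted p = 7.15e-20). Elovl2 had 95 reads (78.5 CPM) in replicate 2 and none in replicate 1, at least 19.7-fold higher against the limit of 3 reads.

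Mitochondrial fatty acid synthesis, a separate route with its own carrier protein, gave 0 calls among 5 tested genes by Fisher's exact test, 0 at an unadjusted p under 0.05, and 2 higher with TMM (Mcat and Ndufab1). The acyl carrier Ndufab1 had 240 CPM in replicate 2, against 222 CPM in replicate 1, the malonyl transferase Mcat had 110 CPM in replicate 2, against 91.7 CPM in replicate 1, and the reductase Mecr had 102 CPM in replicate 2, against 110 CPM in replicate 1. Cbr4, which forms part of the ketoacyl reductase, had 25.6 CPM in replicate 2, against 30.6 CPM in replicate 1.

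The regulators gave 3 of 12 higher and 4 lower, or 4 higher and 1 lower with TMM. Srebf1 had 159 CPM in replicate 2, against 243 CPM in replicate 1, lower by Fisher's exact test (log2 ratio -0.61 ± 0.15, adjusted p = 2.89e-04) and not called with TMM (-0.25, adjusted p = 0.214, exact binomial test). Insig1 and Insig2 encode proteins that hold SREBP precursors in the endoplasmic reticulum. Insig2 was higher, with 450 CPM in replicate 2, against 129 CPM in replicate 1 (log2 ratio 1.80 ± 0.16, Fisher's exact test, adjusted p = 1.39e-36). Insig1 had 534 CPM in replicate 2, against 573 CPM in replicate 1 (Fisher's exact test, adjusted p = 0.406), and was called higher with TMM (log2 ratio 0.26, adjusted p = 0.0170, exact binomial test). The liver X receptor gene Nr1h2 had 112 CPM in replicate 2, against 187 CPM in replicate 1 (log2 ratio -0.74 ± 0.17, Fisher's exact test, adjusted p = 1.42e-04), a call that was not kept with TMM (adjusted p = 0.0831, exact binomial test). Nr1h3, the other liver X receptor gene, went the other way, with 111 CPM in replicate 2, against 46.5 CPM in replicate 1. Its log2 ratio was 1.24 ± 0.27 (Fisher's exact test, adjusted p = 8.30e-06), or 1.59 with TMM (adjusted p = 2.10e-09, exact binomial test). Mbtps1 was the regulator still lower with TMM (log2 ratio -0.91, adjusted p = 2.18e-04, exact binomial test). Nr1h3 and Mbtps1 were named after their values were seen.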

How the data were processed

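The authors deposited raw, whole-number read counts for every transcript model, in a table and an annotation file per library. Build mm10 and annotation GENCODE M21 are named per the file headers, and the class names are those of TALON. The sources used here give neither the aligner nor tool versions, nor whether PCR copies were merged. Counts were summed per gene, leaving out spike-in reads (1.33% of reads in replicate 2 and 1.39% in replicate 1) and reads outside annotated genes (4.85% in replicate 2 and 3.84% in replicate 1). The exon number and length of every known model matched GENCODE M21 (21262 of 21262 in replicate 2 and 19372 of 19372 in replicate 1). Reference transcripts are the longest protein-coding ones with reads, or the longest annotated where none had reads. Introns were matched by coordinates and strand.

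The members, lists and tests were chosen with earlier results of these data known. Fisher's exact test (two-sided, scipy 1.17.1, Python 3.11.15) with Benjamini-Hochberg adjustment was run over every gene whose libraries sum to 10 reads or more (for shares, 20 or more in each), at a threshold of 0.05. Log2 ratios add 0.5 reads to each count. TMM came from edgeR 4.0.16 and size factors from DESeq2 1.42.0, used for scaling alone, since 2 libraries of 1 group allow no model of spread between conditions. The tests were tried on simulated counts that held counting error alone. The level test recovered 59.5% of 200 genes changed 2-fold and called 4 unchanged genes, so a gene not called may still differ. The known share test recovered 99.5% of 200 genes with a shifted share and called 5 unchanged genes. Those shifts were larger than any known share difference of the 10 genes in the main setting. The shifted genes had at least 200 known and ISM reads in both libraries together, more than Acaca, Acacb, Elovl1 and Elovl6 had. The recovery of smaller shifts, or in genes with fewer reads, was not simulated. Named genes are the 10 members, the 4 of each pathway list with the highest mean CPM, and 5 genes most like Fasn. Alternatives covered the classes counted, scaling, minimums, thinning and leaving out each library.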

Additional observations from a re-analysis of the deposited data

How the results depend on the processing

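The number of the 10 genes called between libraries was 4 to 7 under 9 alternatives, against 5: 4 with known transcripts alone or without genomic reads, 7 without ISM reads, and 6 with thinning, TMM or size factors. The known share calls were 3 to 4, against 3. Apart from TMM and size factors, the share of all genes called under these alternatives was not computed. Those counts therefore have no background to be read against. The median known share (78.4% over both libraries) moved to 62.8% as known reads of all reads, to 84.1% with single-exon ISM reads left out, and, in alternatives chosen after seeing the data, to 64.1% with single-exon genomic reads counted as ISM and 84.0% as reads over the first among those over the last intron. A minimum of 50 known reads left 1 leading transcript call, against 2, since Fasn then had too few. Without each library in turn the summed level was 5047 to 10874 CPM and the median known share 76.6% to 80.1%.

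Signs turned for Acaca (0.37 without genomic reads) and Acacb (-0.83 without ISM reads), for the Scd2 share (-28.8 points of all reads, -22.8 without single-exon ISM, -30.4 with genomic counted as ISM), for the Elovl6 share (7.60, 6.45 and 8.95 points in the same order) and for the Acly leading share (-2.22 points over known plus ISM reads). For Acaca, Scd2 and Elovl6 the turn goes with the class that single-exon reads were given. For Acacb and Acly the cause was not tested. Of the other log2 ratios, 75 kept their side of the threshold, 7 gained a call (among them Acaca, at -1.46 without ISM reads) and 4 lost it. No paired analysis was possible because both libraries belong to 1 group. The carboxylases had 41 to 71 reads per gene and library, which limits what their shares can show.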
